A study of Mus musculus with 4 samples.

Results

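Heat-shock proteins and co-chaperones, 40 genes of the 26172 listed across the series, were followed in single cells from MC38 tumours. The members were chosen by name: 15 stress-inducible genes and 25 that are mostly made constitutively. All 40 were listed for both libraries. The label of the set calls them cytosolic, but Hspa9, Hspd1 and Hspe1 encode mitochondrial chaperones and Hspa13 encodes a microsomal one, and they were kept as listed. MC38 is a mouse colon carcinoma line. It was grown in wild-type mice (genotype WT) and in FOXP3 humanized mice, which were 10 weeks old, had no treatment and were killed on day 20. FOXP3 is the transcription factor of regulatory T cells, and the stated aim was their expression profile inside the tumour. Each genotype had 1 cDNA library, so n = 1 throughout, no difference has a replicate check, no p-value is given, and genotype, mouse and library cannot be told apart. Which part of the gene is humanized, and how many mice gave each library, is not given in the sources used here.

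Values were read in 2 classes of barcodes (cell labels). Deep barcodes had at least 5000 UMIs (unique molecular identifiers, which count captured RNA molecules) and no Cd3e, Cd3d, Cd3g or Ptprc UMI, and T barcodes had under 5000 UMIs and at least 1 UMI of Cd3e, Cd3d or Cd3g. The wild-type library held 6705 deep and 96 T barcodes among 7691, and the humanized library 9671 and 155 among 11087. Deep barcodes summed to 129144384 and 140575771 UMIs, and T barcodes to 185429 and 279949, so levels in T barcodes are far less precise. Median UMIs per barcode were 16866 and 12522 in deep barcodes against 1700.5 and 1587 in T barcodes. The labels call all cells immune, yet 4 leukocyte genes (Ptprc, Coro1a, Laptm5 and Rac2) together had a level of 1.67 CPM (counts per 1e+06 UMIs) in deep barcodes of either library. In T barcodes they had 3122 and 2379 CPM. Part of this gap is built in, since the rule sets Ptprc to 0 in deep barcodes and picks T barcodes by CD3 genes. Conversely, 26 non-immune genes stood in T barcodes at 15.5% (wild-type) and 22.6% (humanized) of their deep level, with 12 and 10 of the 26 at 0. Krt8 and Krt18 are among those at 0, but they were also scarce in deep barcodes, so their 0 does not separate the classes. The 1551 barcode names found in both libraries are serial numbers and not sequences, so shared cells could not be looked for. Intervals are 95% and cover counting error only.

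Heat-shock proteins are chaperones that bind unfolded proteins. HSP70 proteins take client proteins from HSP40 (DnaJ) partners and release them with exchange factors such as BAG and HSP110 proteins, HSP90 proteins complete the folding of kinases and receptors with their own co-chaperones, small heat-shock proteins hold aggregating proteins, and the TRiC ring folds actin and tubulin. The transcription factor HSF1 raises the inducible members after heat or proteotoxic stress by binding inverted repeats of the letters GAA in their promoters. Tissue dissociation is known to induce the same genes.

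The promoters of the inducible HSP70 pair Hspa1a and Hspa1b and of Hspb1, a small heat-shock protein, are shown because the UMIs of the pair split differently between the barcode classes, and because Hspb1 was nearly at 0 in deep barcodes. Each is the 250 bases before the gene's start in RefSeq, build GRCm38.p6, 5′ to 3′ on the gene's strand. Hspa1a lies on the minus strand at chr17:34972157-34972406, Hspa1b on the minus strand at chr17:34959239-34959488, and Hspb1 on the plus strand at chr5:135887669-135887918. Capitals mark GAANNTTC or TTCNNGAA, the 2 arrangements of an inverted pair of GAA units, which read the same on both strands.
Hspa1a: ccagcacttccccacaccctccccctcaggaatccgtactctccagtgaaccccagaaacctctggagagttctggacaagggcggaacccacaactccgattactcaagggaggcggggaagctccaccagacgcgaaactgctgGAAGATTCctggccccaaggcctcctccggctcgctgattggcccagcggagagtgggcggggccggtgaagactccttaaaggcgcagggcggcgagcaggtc
Hspa1b: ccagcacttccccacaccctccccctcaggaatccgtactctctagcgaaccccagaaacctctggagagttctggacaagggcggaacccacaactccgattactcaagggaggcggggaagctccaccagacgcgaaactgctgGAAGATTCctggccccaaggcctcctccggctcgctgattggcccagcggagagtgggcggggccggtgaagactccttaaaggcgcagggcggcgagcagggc
Hspb1: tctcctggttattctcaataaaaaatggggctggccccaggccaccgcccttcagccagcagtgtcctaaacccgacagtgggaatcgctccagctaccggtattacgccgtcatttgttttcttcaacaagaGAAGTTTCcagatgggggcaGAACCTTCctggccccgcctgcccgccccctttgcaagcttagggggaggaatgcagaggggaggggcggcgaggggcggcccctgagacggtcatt
The Hspa1a and Hspa1b windows were identical at 247 of 250 bases, with the substitutions C44T, T47C and T249G (Hspa1a base first, position counted from 1 at the window's 5′ end, then the Hspa1b base). Each held the motif once, starting 104 bases before the gene, and the Hspb1 window held it at 117 and 97 bases before the gene. Of 32 members with an entry, 6 of 13 inducible ones (46.2%) and 6 of 19 constitutive ones (31.6%) held the motif in at least 1 window, against 14.5% of 27025 genes. The inducible ones were Hspa1a, Hspa1b, Hspb1, Hsph1, Dnaja1 and Dnajb4. The constitutive ones were Hspd1, Hspe1, Dnajb6, Fkbp4, Cct2 and Cct5. The Hspd1 and Hspe1 windows overlap on opposite strands and hold the same stretch of motifs. With the nearly identical Hspa1a and Hspa1b windows, each count thus includes a pair that is not independent. Entries for Cryab, Hsf1, Hsp90aa1, Hsp90ab1, Hspa13, Hspa8, Hspa9 and St13 were not matched. A match is a description of letters and not a binding site.

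In deep barcodes the set was led by the HSP90 and HSP70 chaperones that cells make without stress. Levels below are CPM of UMIs, not scaled to transcript length, so their order is an order of molecules counted. Hsp90ab1, the constitutive HSP90, stood at 6128 CPM in the wild-type and 6592 CPM in the humanized library. Hspa8, the constitutive HSP70, followed at 2553 and 3431 CPM. Hspe1, the mitochondrial HSP10, stood at 1085 and 805 CPM, and Hsp90aa1, the inducible HSP90, at 1033 and 913 CPM. Hspe1 and Hsp90aa1 changed places between the libraries. Cryab, the small heat-shock protein alpha B-crystallin, was next at 737 and 650 CPM, and Stip1, which links HSP70 to HSP90, at 637 and 484 CPM. Ptges3 (the HSP90 co-chaperone p23) stood at 445 and 422 CPM, and Hspd1, the mitochondrial HSP60, at 442 and 409 CPM. All 25 constitutive members together summed to 13658 and 14648 CPM, and the 15 inducible ones to 3469 and 3042 CPM.

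**Figure D1:**
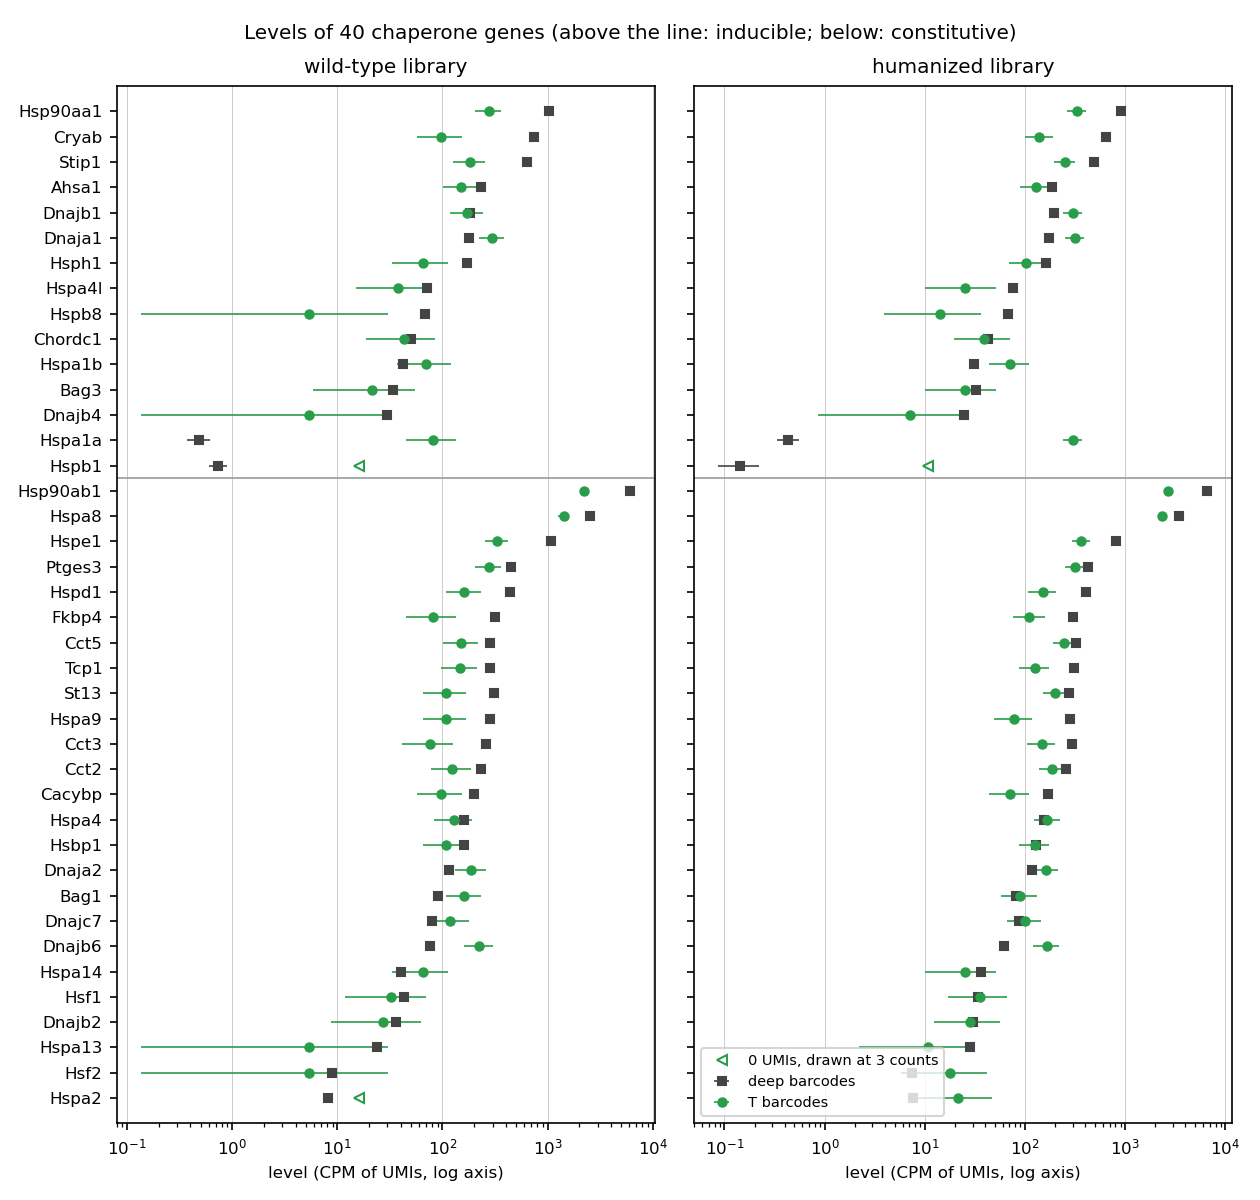
Level of each of the 40 members (CPM of UMIs, log axis) in deep barcodes (squares) and T barcodes (circles) of each library, with 95% Poisson intervals, and open triangles for genes with 0 UMIs drawn at a count of 3. Hspa1a is the member whose T level lies farthest above its deep level, at 80.9 against 0.48 CPM in the wild-type and 304 against 0.43 CPM in the humanized library.

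The small heat-shock proteins were unequal. Cryab was found in 6312 of 6705 wild-type and 8616 of 9671 humanized deep barcodes, and Hspb8, a partner of Bag3 in clearing misfolded protein, stood at 67.9 and 68.1 CPM. Hspb1 had 95 UMIs over all wild-type deep barcodes and 20 over the humanized ones, or 0.74 and 0.14 CPM, in 21 and 9 barcodes. One wild-type barcode of 16455 UMIs held 57 of the 95, and it also carried 93 Krt8, 145 Krt18, 75 Krt19 and 21 Epcam UMIs, the keratins and adhesion protein of epithelial cells. The other deep barcodes scarcely had these genes: those with no Hspb1 UMI stood at 0.63 and 0.61 CPM for Krt8, Krt18, Krt19, Krt7 and Epcam summed. In the wild-type library the UMIs of Hspb1 thus sat largely in a barcode that stood apart from the rest of its class. In the humanized library the top barcode held 8 of the 20, with 0 UMIs of these 5 epithelial genes.

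Within the inducible HSP70 pair nearly all deep UMIs were assigned to Hspa1b. Hspa1b had 5477 wild-type and 4382 humanized UMIs, in 2775 and 2822 barcodes. Hspa1a had 62 and 61, in 29 and 40 barcodes, which is 1.12% (0.86 to 1.43) and 1.37% (1.05 to 1.76) of the pair. Both genes encode almost the same protein, and how reads that match either were assigned is not given in the sources used here, so the pair's sum is also given. In the wild-type library the 12 deep barcodes with at least 2 Hspa1a UMIs held 45 of the 62, and their level of 4 MHC class II genes (Cd74, H2-Aa, H2-Ab1 and H2-Eb1, genes of antigen-presenting cells, chosen after their values were seen) was 2823 CPM against 15.2 CPM in deep barcodes without Hspa1a. That level is pooled over the 12 and does not hold for each of them. The barcode with most Hspa1a, 8 of its 12386 UMIs, had 1 Cd74 UMI and 0 of H2-Aa, H2-Ab1 and H2-Eb1. In the humanized library the 11 barcodes with at least 2 Hspa1a UMIs had 0 UMIs of these 4 genes, against 8.91 CPM in those without.

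The other inducible members were of middling level in deep barcodes. Dnajb1, the HSP40 partner of inducible HSP70, stood at 184 and 197 CPM, and Dnaja1, another HSP40, at 179 and 174 CPM. Hsph1 (HSP110) stood at 171 and 161 CPM, Ahsa1, an activator of the HSP90 ATPase, at 231 and 187 CPM, and Hspa4l, a relative of HSP110, at 71.2 and 76.6 CPM. Chordc1, an HSP90 co-chaperone, was at 50.5 and 42.9 CPM, Bag3 at 33.9 and 32.8 CPM, and Dnajb4 at 29.6 and 24.5 CPM. Hsf1, which encodes the regulator itself, was at 42.8 and 33.8 CPM.

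Members differed in how unevenly they were spread over deep barcodes. With every deep barcode thinned to 5000 UMIs, the ratio of variance to mean (1 for counts spread by chance alone) was 10.1 (wild-type) and 8.0 (humanized) for Cryab. It was 4.99 and 5.47 for Hsp90ab1, 3.48 and 3.46 for Hsp90aa1, 3.47 and 3.33 for Dnajb1, 3.00 and 3.60 for Hspa8, and 2.02 and 1.65 for Hsph1. The median over genes with a UMI in at least 20% of barcodes was 1.10 in both libraries. The ratio can grow with the level, yet Dnajb1 at 184 CPM had a ratio above that of Stip1 at 637 CPM, which was 1.61 and 1.44. The 1% of barcodes highest in Dnajb1 held 12.6% and 12.4% of its thinned UMIs. This share also grows as the mean count falls, so it is set beside inducible members with a mean near that of Dnajb1. It was 9.25% and 8.35% for Hsph1, 7.44% and 7.66% for Dnaja1, and 4.76% and 5.38% for Ahsa1. For Hsp90ab1, with a mean of 30.4 and 32.4 UMIs against 1.03 and 1.06 for Dnajb1, it was 2.63% and 2.57%.

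Over the same thinned barcodes, the pair with the highest correlation was Hsp90aa1 and Hsp90ab1, at 0.49 in each library. Hspa8 with Hsp90ab1 reached 0.32 and 0.37, Cryab with Dnajb1 0.33 and 0.29, Hsp90ab1 with St13 (an HSP70 co-chaperone) 0.27 and 0.28, Hspe1 with Dnajb1 0.26 and 0.23, and Hsph1 with Dnajb1 0.25 and 0.22. These are over 6705 and 9671 barcodes that share a library and a depth, and are descriptions. Most pairs were near 0: the median was 0.035 and 0.039 over 105 inducible pairs and 0.012 and 0.023 over 300 constitutive pairs. Outside the set, the 10 genes most correlated with the summed inducible UMIs, ranked by the lower of the 2 libraries among 2322 genes, were Mt1 (0.36), Mt2 (0.29), Ftl1 (0.26), Eif1 (0.24), B2m (0.16), Rpl4 (0.16), Eif5 (0.15), Lgals3 (0.15), Neat1 (0.15) and Ubb (0.14). Mt1 and Mt2 encode metallothioneins, which bind zinc and copper, and Ubb encodes polyubiquitin. With barcodes of at least 10000 UMIs thinned to that depth, 6 of the 10 were again among the first 10. Constitutive members went with the inducible sum as well. At 5000 UMIs the first of 19 were Hsp90ab1 (0.42), Hspa8 (0.34), Hspe1 (0.28) and St13 (0.26), again by the lower of the 2 libraries. The sum is led in level by Hsp90aa1, Cryab and Stip1, so it mostly follows these members.

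The 5% of deep barcodes highest in summed Hspa1a and Hspa1b, 335 wild-type and 484 humanized, were set beside the rest to see which other members went with the pair. Bag3, which couples HSP70 to small heat-shock proteins, was 2.12-fold higher there in the wild-type (77.0 against 36.3 CPM) and 2.30-fold in the humanized library (74.0 against 32.1 CPM). Dnajb1 was 1.88-fold and 1.82-fold higher, Hsph1 1.71-fold and 1.61-fold, and Dnajb4 1.43-fold and 1.51-fold. Cryab was 1.35-fold and 1.37-fold higher and Hsp90aa1 1.27-fold and 1.36-fold. Stip1 stood at 1.02-fold in the wild-type library. None of the 25 constitutive members was 1.5-fold higher in either library, and the median log2 ratio was 0.35 and 0.44 over the 13 remaining inducible members against 0.054 and 0.083 over the constitutive ones. Over members with a UMI in at least 20% of barcodes, it was 0.35 and 0.29 for the 10 and 9 inducible ones left, and 0.057 and 0.083 for 19 constitutive ones in each library. Lists outside the set also stood above 0: the median was 0.30 and 0.37 for the 2 metallothioneins, 0.23 and 0.28 for 8 and 7 other HSF1 targets, and 0.22 and 0.19 for 10 immediate-early genes. Of other genes with a UMI in at least 20% of barcodes, 2 of 2572 and 2 of 2366 were 1.5-fold higher. Median UMIs before thinning were 15663 in the top barcodes and 16916 in the rest of the wild-type library, and 12178 and 12549 in the humanized one. The cut fell among barcodes with 1 UMI of the pair, so 115 of 934 and 268 of 1064 such barcodes were taken by their order in the file.

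**Figure D2:**
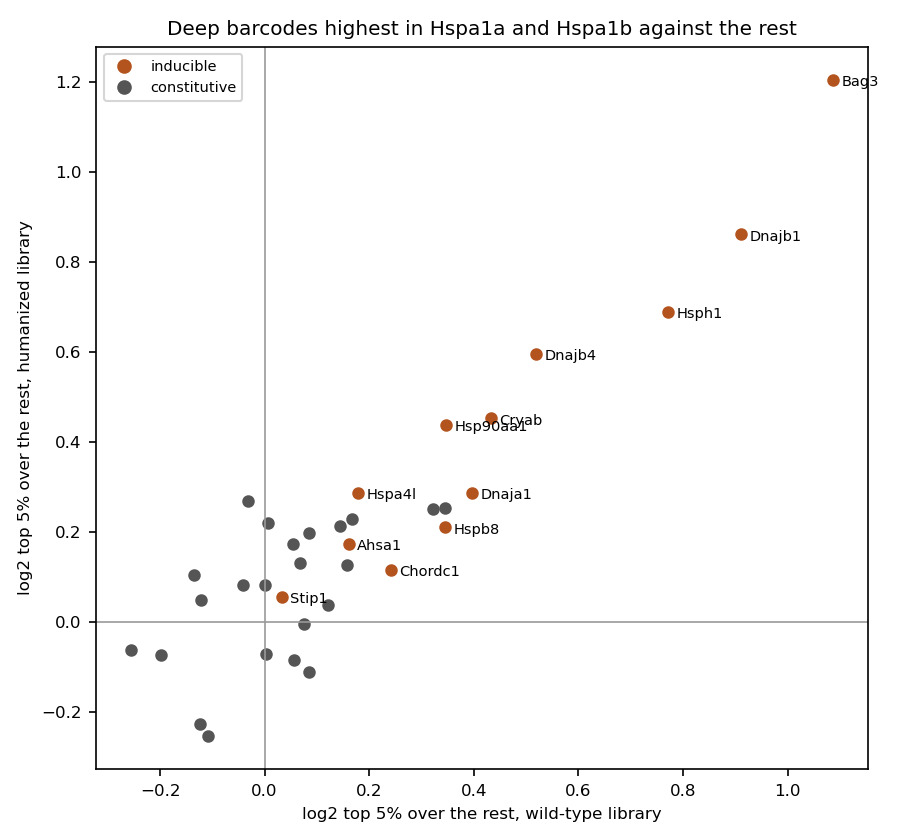
Log2 ratio of each member's level in the 5% of deep barcodes highest in Hspa1a and Hspa1b over the rest, wild-type library on the x axis and humanized library on the y axis, leaving out the pair itself and members with under 20 UMIs in the top barcodes. Bag3, Dnajb1, Hsph1 and Dnajb4 stand highest in both libraries, and the constitutive members gather near 0.

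Levels also moved with the depth of the barcode. Deep barcodes were ranked by UMIs and cut into 4 equal bins. From the bin with fewest UMIs to the bin with most, Cryab went from 1023 to 606 CPM in the wild-type and from 783 to 589 CPM in the humanized library. Dnajb1 went from 260 to 141 CPM and from 247 to 165 CPM, and Hsph1 from 205 to 157 CPM and from 180 to 153 CPM. Hsp90aa1 ran the other way, from 880 to 1118 CPM and from 697 to 1014 CPM. Hspa8 stayed between 2535 and 2603 CPM in the wild-type and between 3406 and 3457 CPM in the humanized library. The inducible sum did not move alike in the libraries. It went from 3661 to 3363 CPM in the wild-type and from 2936 to 3079 CPM in the humanized one. Since median depth is higher in the wild-type library, these gradients stand beside every comparison of the libraries, and their part in it was not tested.

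**Figure D3:**
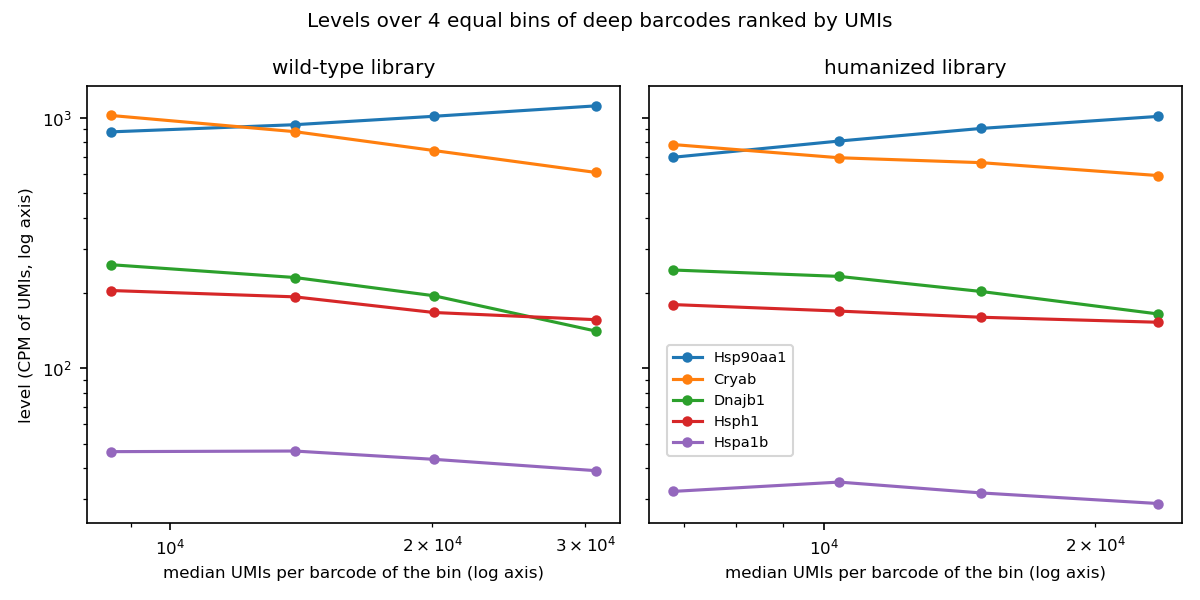
Level (CPM of UMIs, log axis) of 5 inducible members in 4 equal bins of deep barcodes ranked by UMIs, against the median UMIs of the bin (log axis), for each library. Cryab, Dnajb1 and Hsph1 are lower and Hsp90aa1 is higher in deeper bins of both libraries.

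Between genotypes, 1 member was called in deep barcodes. A member was called when it had at least 20 UMIs over both sums, a difference of at least 1.5-fold and an interval of the log2 ratio that left out 0. Of 40 members, 0 were called higher and 1 lower in the humanized library, where 0.928% of 17125 genes were called higher and 15.6% lower. Among the 2375 genes whose mean of both levels was at least 50 CPM, which are closer to most members in level, 0.46% were called higher and 2.11% lower. No member at that level was called. The member called lower (2.5% of 40) was Hspb1, at 0.74 against 0.14 CPM (log2 ratio -2.37, -3.14 to -1.66). Hspb1 lies far below 50 CPM, so the shares at that level are no background for its call. Without the barcode with most of its UMIs in each library its log2 ratio was -1.79. Hspa8 was 3431 against 2553 CPM, a log2 ratio of 0.43 (0.42 to 0.43). Hspa1b was 31.2 against 42.4 CPM (-0.44), Hspe1 805 against 1085 CPM (-0.43) and Stip1 484 against 637 CPM (-0.39). The summed log2 ratio was -0.19 for inducible and 0.10 for constitutive members. Scaled to the median gene, which moves every log2 ratio up by 0.22, Hspa8 was called higher (0.65) and the inducible sum stood at 0.03. That median was taken over 15097 genes, most of them of low level. Over the 2375 genes at a mean of at least 50 CPM the median log2 ratio was -0.075. The size of the shift thus depends on the genes taken.

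In T barcodes, 28 of the 40 members had enough UMIs to compare the libraries. Here 6 were called higher and 1 lower in the humanized library, where 2.54% of 3388 genes were called higher and 5.87% lower. Among 2942 genes at a mean of at least 50 CPM these shares were 2.45% and 6.56%. Hspa1a was counted 15 times in wild-type and 85 times in humanized T barcodes, or 80.9 CPM (45.3 to 133) and 304 CPM (243 to 375), a log2 ratio of 1.91 (1.11 to 2.81). They came from 8 of 96 and 28 of 155 barcodes, and 1 barcode held 33.3% of the wild-type UMIs and 11.8% of the humanized ones. Hspa8 was 1429 against 2318 CPM (0.70, 0.49 to 0.91). Dnajb1 was 173 against 300.1 CPM (0.80, 0.19 to 1.43), and St13 was 108 against 200.04 CPM (0.89, 0.13 to 1.71). The TRiC subunits Cct3 and Cct5 stood at 75.5 against 146 CPM (0.96, 0.05 to 1.95) and 151 against 243 CPM (0.69, 0.03 to 1.38). Bag1, an HSP70 exchange factor, was lower at 89.3 against 162 CPM (-0.86, -1.68 to -0.04). Hspa1b did not follow Hspa1a, at 70.1 against 71.4 CPM (0.03, -1.05 to 1.16), and the pair's sum had a log2 ratio of 1.31 (0.70 to 1.97).

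The T calls rested on few molecules. With every barcode thinned to 1000 UMIs, or with the 45 wild-type and 83 humanized T barcodes that had no UMI of the non-immune genes, 2 members were called higher, and both times they were Hspa1a and Hspa8. Bag1 was not called in either. After thinning 0 members were called lower, and in the T barcodes with no non-immune UMI the 1 called lower was Dnajb6. Non-immune transcripts were also at a higher level in the humanized T barcodes (832 against 485 CPM), and their part in the differences was not tested. The summed log2 ratio was 0.45 (0.24 to 0.66) for inducible members and 0.31 (0.21 to 0.41) for constitutive ones, and without Hspa1a and Hspa1b the inducible sum stood at 0.31 (0.08 to 0.53). In the T barcodes with no non-immune UMI the inducible sum was 0.20 (-0.09 to 0.50).

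**Figure D4:**
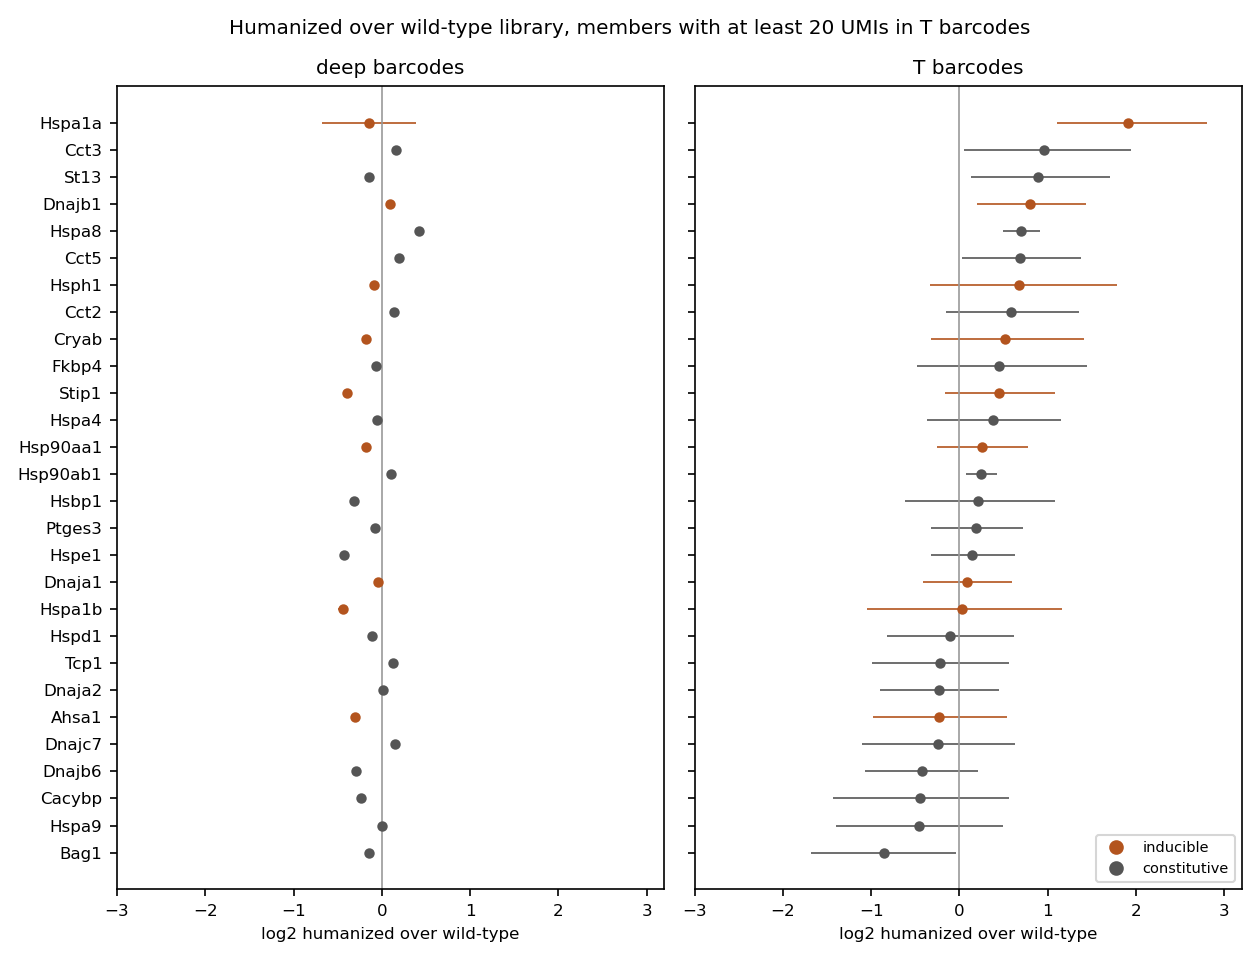
Log2 ratio of the humanized over the wild-type library for the 28 members with at least 20 UMIs in T barcodes, in deep barcodes (left) and T barcodes (right), with 95% intervals for counting error. In deep barcodes the points lie between -0.44 and 0.43, and in T barcodes Hspa1a stands highest at 1.91 and Bag1 lowest at -0.86.

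T barcodes were then set against the deep barcodes of the same library. In the wild-type library 5 members were called higher and 19 lower in T barcodes, where 13.8% of 15992 genes were called higher and 7.20% lower. In the humanized library 6 were called higher and 14 lower, against 16.4% and 8.90% of 15454 genes. Among genes at a mean of at least 50 CPM, 33.8% were called higher and 23.4% lower in the wild-type, and 32.6% and 25.7% in the humanized library. The median log2 ratio of those genes was 0.14 and 0.04, against -0.87 and -0.48 for the members. Called in the same direction in both libraries were 3 members higher (Hspa1a, Dnaja1 and Dnajb6) and 13 lower, and 0 were called in opposite directions. Of 15246 genes tested in both libraries, 10.4% were called higher in both, 5.70% lower in both and 0.00656% in opposite directions. Of 2405 genes at a mean of at least 50 CPM in both comparisons, 27.4% and 21.6% were called higher and lower in both. The 3 of 40 members called higher in both are a smaller share than either of these. The other calls higher were Dnaja2 (an HSP40) and Bag1 in the wild-type, and Hspa1b, Dnajb1 and Hspa2 (an HSP70 known from the testis, with 6 T UMIs) in the humanized library.

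Hspa1a had the highest ratio of the 40 members in both libraries. It was at 0.48 CPM in wild-type deep barcodes and 80.9 CPM in T barcodes, a log2 ratio of 7.40 (6.48 to 8.23), and at 0.43 and 304 CPM in the humanized library, 9.45 (8.96 to 9.95). Its wild-type call rested on 15 T and 62 deep UMIs. The call was lost at a minimum of 100 UMIs, with barcodes thinned to 1000 UMIs (8.13, 5.80 to 11.4) and against shallow barcodes, which had under 5000 UMIs and no CD3 or Ptprc UMI (7.44, 4.74 to 12.8), because too few UMIs were then left for the minimum. The members called higher in both libraries were then Dnaja1 and Dnajb6 in the first 2 settings and Dnajb6 alone in the last. With every barcode thinned to 1000 UMIs, 6 of 96 wild-type T barcodes (6.25%, 2.33 to 13.1) had an Hspa1a UMI against 2 of 6705 deep ones (0.030%), and 23 of 155 humanized T barcodes (14.8%, 9.64 to 21.4) against 3 of 9671 (0.031%). The unthinned shares were 8.33% against 0.43% and 18.1% against 0.41%. Hspa1a made up 53.6% (33.9 to 72.5) of the pair's UMIs in wild-type T barcodes and 81.0% (72.1 to 88.0) in humanized ones, so the split between the copies was unlike that in deep barcodes. The pair's sum was 151 against 42.9 CPM (1.82, 1.22 to 2.35) for wild-type cells and 375 against 31.6 CPM (3.57, 3.28 to 3.85) in the humanized library.

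Among T barcodes with an Hspa1a UMI, 2 of 8 wild-type and 8 of 28 humanized ones also had an Hspa1b UMI, against 6 of 88 and 9 of 127 of the others. Hsph1 was found in 3 of 8 and 5 of 28, against 8 of 88 and 19 of 127. Dnajb1 was found in 4 of 8 and 11 of 28, against 22 of 88 and 51 of 127, so its shares with and without Hspa1a were alike in the humanized library. Median UMIs were lower in the barcodes with Hspa1a, at 1442 against 1794 and 1307 against 1636.

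The other members called higher in both libraries, Dnaja1 and Dnajb6, are HSP40 proteins, and the set's other 5 HSP40 members were not called in both. Dnaja1 stood at 297 against 179 CPM (0.73, 0.32 to 1.11) and 314 against 174 CPM (0.86, 0.54 to 1.16). Dnajb6, a constitutive HSP40 that keeps aggregating peptides soluble, stood at 221 against 75.8 CPM (1.55, 1.07 to 1.99) and 164 against 61.9 CPM (1.41, 0.96 to 1.82). Dnajb1 was called higher in the humanized library alone, at 300.1 against 197 CPM (0.61, 0.28 to 0.92), and stood at 173 against 184 CPM (-0.10) in the wild-type. Dnajb4 had log2 ratios of -2.46 and -1.78 on 1 and 2 T UMIs, Dnajb2 of -0.42 and -0.10, and Dnajc7 of 0.59 and 0.19, and none of these was called. Scaled to the median gene with at least 20 UMIs in both classes, which moves the log2 ratios down by 0.52 (wild-type) and 0.40 (humanized), Hspa1a and Dnajb6 were called higher in both libraries and Dnaja1 in neither. A minimum of 20 UMIs is a far higher level in T barcodes than in deep ones. It therefore favours genes high in T barcodes and enlarges the shift. Over genes at a mean of at least 50 CPM the median log2 ratio was only 0.14 and 0.04, so the loss of Dnaja1 depends on this filter.

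The members called lower in both libraries were Hsp90aa1, Hsp90ab1, Stip1, Fkbp4 and Cacybp of the HSP90 system, the mitochondrial Hspa9, Hspd1 and Hspe1, the TRiC subunits Cct3 and Tcp1, and Hsph1, Hspb8 and Cryab. Hsp90ab1 stood at 2243 against 6128 CPM (-1.45, -1.59 to -1.31) and 2661 against 6592 CPM (-1.31, -1.41 to -1.21). Hsp90aa1 stood at 275 against 1033 CPM (-1.91) and 329 against 913 CPM (-1.47). Hspe1 stood at 329 against 1085 CPM (-1.72) and 364 against 805 CPM (-1.14), and Stip1 at 183 against 637 CPM (-1.80) and 250.05 against 484 CPM (-0.95). Hspa8 was nearer its deep level, at 1429 against 2553 CPM (-0.84) and 2318 against 3431 CPM (-0.57), and the second of these was under the 1.5-fold limit. Summed, inducible members had a log2 ratio of -1.20 and -0.57, and constitutive ones -1.10 and -0.89. The inducible sum of -0.57 rests in part on Hspa1a and Hspa1b. In the humanized library this pair made up 375 of 2050 CPM in T barcodes and 31.6 of 3042 CPM in deep ones. In the wild-type library it made up 151 of 1505 CPM and 42.9 of 3469 CPM. The inducible sum depended on the list: with Hspa1a, Hspa1b, Hspb1, Hsph1, Dnajb1 and Bag3 alone it was -0.08 (-0.42 to 0.24) for wild-type and 0.93 (0.73 to 1.12) for humanized barcodes.

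Cryab, second to Hsp90aa1 among inducible members in deep level, stood in T barcodes near the share of deep level that non-immune genes had. It stood at 97.1 CPM in wild-type T barcodes and 139 CPM in humanized ones, which is 13.2% and 21.4% of its deep level, beside 15.5% and 22.6% for the 26 non-immune genes. Multiplying the deep level of each member by these shares gives the level a member would have at the same share. The T intervals of 30 of 40 members lay above it in both libraries, and those of Cryab, Dnajb4, Hspa13, Hspb1 and Hspb8 in neither. For Hspa1a the product was 0.075 and 0.098 CPM. Dnajb4, Hspa13, Hspb1 and Hspb8 had between 0 and 4 T UMIs in each library, so the comparison could hardly place them. Dnajb4 (18.2% and 29.1% of its deep level) and Hspa13 (22.8% and 38.1%) stood above the non-immune shares, and Hspb8 (7.95% and 21.0%) below. T levels of these 5 members are not read as expression by T cells, for Cryab because it stood near the share and for the others for want of UMIs.

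**Figure D5:**
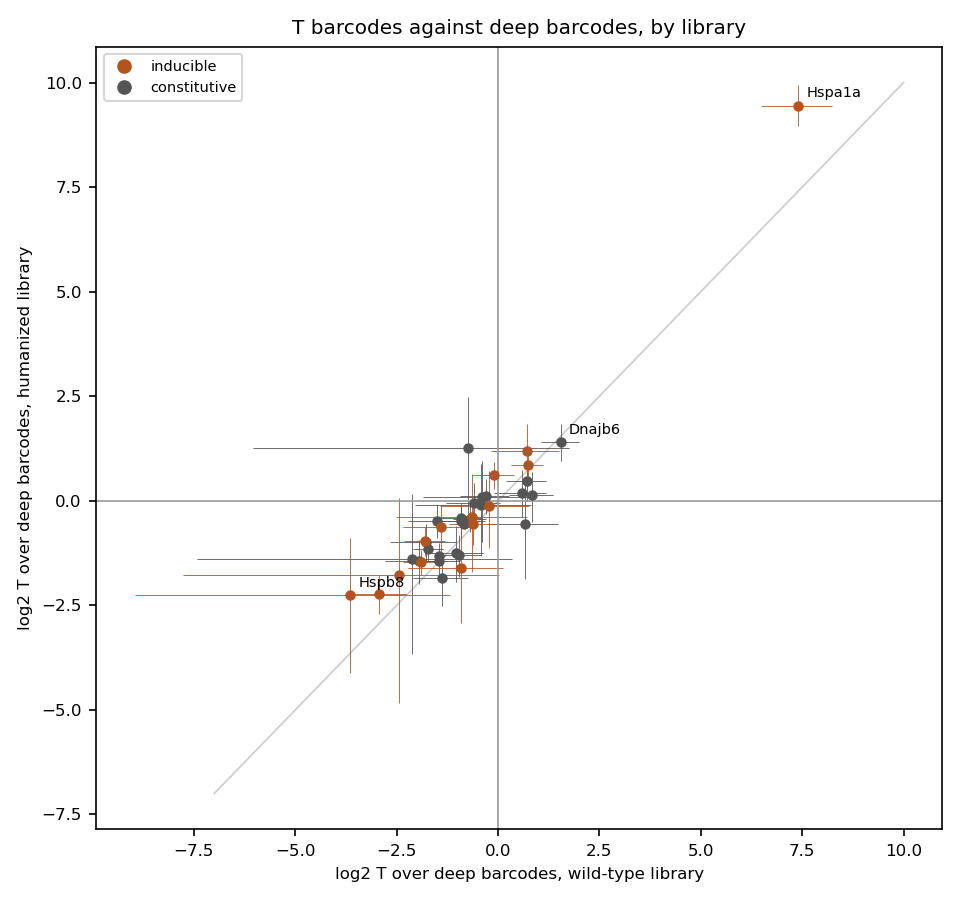
Log2 ratio of T over deep barcodes in the wild-type (x axis) and humanized (y axis) library for members with a UMI in T barcodes of both, with 95% intervals for counting error and a grey line of equal ratios. Most members lie below 0 on both axes, and Hspa1a lies apart at 7.40 and 9.45.

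Other gene lists gave the setting in T barcodes. The rest of TRiC had 3 of 4 genes called lower in the wild-type and 4 of 4 in the humanized library, with Cct4 at 129 against 320.5 CPM (-1.31) and 143 against 316 CPM (-1.14). Of 15 other HSP90 co-chaperones, 2 and 3 were called higher and 3 and 4 lower. Of 20 other HSF1 targets, 19 could be compared, and 5 and 6 were called higher and 2 and 2 lower, with Dedd2 at 48.5 against 6.27 CPM (2.95) and 32.1 against 5.78 CPM (2.47). Of 18 immediate-early genes, which cells also switch on during dissociation, 13 and 12 were called higher and 3 and 3 lower, with Fos at 820 against 72.8 CPM (3.49) and 932 against 93.2 CPM (3.32). Both metallothioneins were called lower, Mt1 at 1138 against 4994 CPM (-2.13) and 1029 against 4713 CPM (-2.20). Of 16 genes of G2 and mitosis, 11 and 14 were called lower. What part dissociation or cell division has in the members' differences was not tested.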

How the data were processed

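The authors deposited unnormalized UMI counts in a gene-by-barcode matrix for each library. PISA 1.0 is named by the file headers, and GRCm39 by the submitters' processing notes. The aligner, annotation, rule for calling cells and handling of reads that match several genes are not given in the sources at hand. The oligo libraries were not analysed here. Members and gene lists were chosen with earlier results of these data known, and the 50 CPM comparison, the MHC class II genes and the shallow comparison were chosen after their values were seen.

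UMIs were summed per gene, class and library with Python 3.11.15, numpy 2.4.6 and scipy 1.17.1, without cell clustering or doublet calling. Levels are CPM with exact Poisson intervals, ratios have exact conditional intervals and shares exact binomial (Clopper-Pearson) intervals, at 95%. A count of 0 was set to 3 in a ratio, and no ratio was given where the other level, in CPM, was at or under the level of those 3 counts. Calls needed listing in both libraries, 20 UMIs and 1.5-fold, and the rule was tested on simulated data. These were Poisson sums, the model that the intervals assume. That test therefore does not cover spread between barcodes or libraries. Thinning drew UMIs without replacement, and no barcode was too shallow for 1000. All inducible members were named. Constitutive ones were named when among the 8 highest in deep barcodes, called between libraries in T barcodes, or called the same way in T against deep barcodes of both libraries. Outside the set, the 10 genes most correlated with the inducible sum were named. Other genes were named after their values were seen. Promoter sequences are RefSeq's, of build GRCm38.p6, and were not joined to coordinates of the files.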

Additional observations from a re-analysis of the deposited data

Results flagged for a closer look

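The summed inducible members had opposite signs between genotypes in the 2 classes: the log2 ratio of humanized over wild-type was 0.45 in T barcodes and -0.19 in deep barcodes. St13 did the same, at 0.89 and -0.14. With 1 library per genotype the difference between classes was not tested, and under scaling to the median gene the deep values were 0.032 and 0.078.

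In barcodes with under 5000 UMIs and no CD3 or Ptprc UMI, which no comparison of genotypes used, the humanized library had 30 Hspa1a UMIs against 1 in the wild-type library. One barcode of 1126 UMIs held 86.7% of them, together with 7 Hspa1b and 6 Dnajb1 UMIs.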

How the results depend on the processing

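Of 100 alternative values for the 8 counts of called members, 79 lay within 1.5 times the main count, and no call of a single member changed sign. Some of the 79 could not have moved. The limit of at most 10% mitochondrial UMIs kept every barcode. Settings that changed T barcodes alone left the genotype counts in deep barcodes as they were. Likewise, the deep minimum of 10000 UMIs left the genotype counts in T barcodes as they were. Calls higher in humanized T barcodes (6) numbered 2 in T barcodes with no non-immune UMI, 2 thinned to 1000 UMIs, 3 at a minimum of 100 UMIs and 1 at 2-fold. The 1 call lower there became 0 with T barcodes under 3000 UMIs, thinned, scaled without mitochondrial and ribosomal protein genes, scaled to the median gene, at 100 UMIs and at 2-fold. In deep barcodes the 1 call lower became 0 thinned, and the 0 calls higher became 1 scaled to the median gene. Calls higher in wild-type T over deep barcodes (5) numbered 3 thinned, 3 without mitochondrial and ribosomal protein genes, 2 scaled to the median gene, 2 at 2-fold, 8 with no interval and 2 against shallow barcodes. In the humanized library, 6 calls higher became 3 and 14 lower became 22 scaled to the median gene, and 6 higher became 3 against shallow barcodes, an alternative added after seeing the data. For T over deep barcodes the median gene was taken among genes with at least 20 UMIs in each class, which favours genes high in T barcodes. Against shallow barcodes the log2 ratio of Hspa1a was 7.44 and 4.96. The inducible sum reversed in deep barcodes scaled to the median gene (0.032) and in humanized T over deep barcodes with the narrow inducible list (0.93). The cause was not tested, beyond what each alternative changes by its construction. No paired analysis was possible because each genotype has 1 cDNA library. T sums of 185429 and 279949 UMIs limit what can be seen in T barcodes.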
